A study of Mus musculus with 2 samples.

Results

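The data described here are 1195 NELF-B regions of ordinary height that lie close to another such region, out of 9095 regions in the list of 1 chromatin immunoprecipitation (ChIP-seq) library. The members were chosen by 2 measured values, the gap to the neighbouring region and the summit height. Consecutive regions on a chromosome were kept where the end of one and the start of the next were 10 kb or less apart and both heights were under 93. This gave 633 pairs among the 9075 consecutive pairs of the list, or 6.98% (exact 95% interval 6.46 to 7.52). The members made up 14.6% of the 8184 regions with a height under 93 (13.8 to 15.4). They were set beside 1529 consecutive pairs under the same height ceiling whose gap was 20 to 50 kb, called comparison pairs below, which held 2708 regions. Because 71 members belonged to 2 close pairs, and 284 regions of the comparison pairs were also members, pairs are not independent of each other.

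The negative elongation factor (NELF), to which NELF-B belongs, acts together with the elongation factor DSIF to hold RNA polymerase II shortly downstream of the start site of a gene. The kinase P-TEFb releases the polymerase into productive elongation, and NELF then leaves it. NELF is therefore found mainly at the start of genes, and NELF-B is required for early development of the mouse embryo.

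The library came from mouse embryonic fibroblasts, connective tissue cells cultured from an embryo in which 1 Nelf-b allele was floxed and the other null (Nelf-b f/-), on a mix of the 129/SvJ, C57BL/6 and FVB strains. The cells were kept in 10% serum, were not synchronised, and gave chromatin that was precipitated with a purified polyclonal antibody against NELF-B. An input library of the same cells and genotype, with no antibody, belongs to the series, but it contributed no values here. Each group has 1 library, so no value has a replicate error and no p-value is given; intervals cover counting error over pairs or regions only. The height is a whole number beside each summit whose unit the authors do not state, and the sequencing depth is unknown. Positions are those of the deposited list, counted from 1, and its build is not stated in the labels or headers. In the gene table at hand, of assembly GRCm38.p6, the last gene of 7 chromosomes ends before the start of some regions, 88 in all, so no gene or sequence was assigned to a region.

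Close pairs were rarely adjoining. Their median gap was 6117 bp (95% interval from order statistics 5836 to 6314), with quartiles of 4353 and 7856 bp, and their summits lay a median of 7328 bp apart (7008 to 7600). Short gaps were the rarest, and from 5 to 9 kb the number of pairs per kb changed little. Gaps under 1 kb occurred in 5 pairs and gaps of 1 to 2 kb in 26. The fullest bin, 5 to 6 kb, held 99 pairs or 15.6% (12.9 to 18.7), and the last, 9 to 10 kb, held 58 or 9.16% (7.03 to 11.7). Per kb of gap there were 15.5 pairs below 2 kb, 59 from 2 to 5 kb and 91.8 from 5 to 9 kb, against 68.9 from 10 to 20 kb and 51.0 from 20 to 50 kb under the same ceiling. No consecutive regions of the list overlapped. How the peak caller joined neighbouring enriched stretches is not stated in the labels or headers, and its part in the small number of short gaps was not tested.

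**Figure D1:**
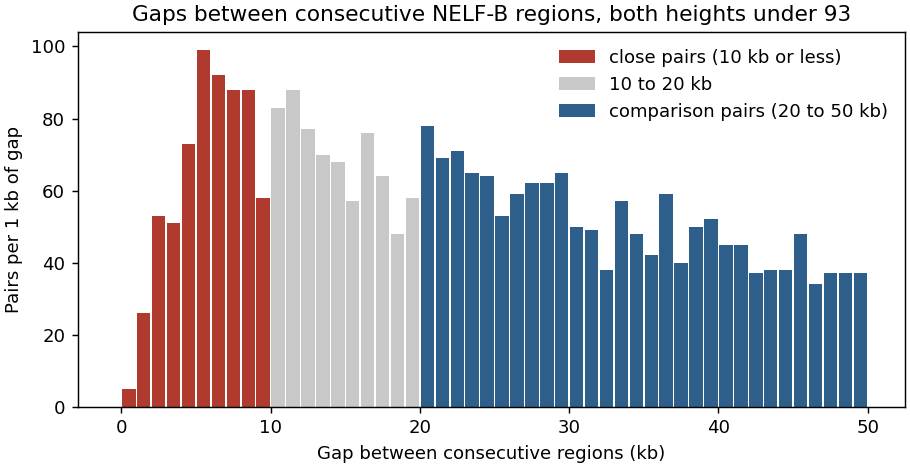
Number of consecutive pairs (vertical axis, pairs per 1 kb) by gap in kb (horizontal axis) for pairs with both heights under 93; bars up to 10 kb are the 633 close pairs and bars from 20 kb the 1529 comparison pairs. Only 31 close pairs had a gap under 2 kb, and the fullest bin was 5 to 6 kb with 99 pairs.

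The shortest gap, 23 bp, was on chromosome 2 between a region at 53049651 to 53050734 with a height of 71 and one at 53050758 to 53051566 with a height of 57. On chromosome 16, 30 bp separated 20610261 to 20611241 (height 82) from 20611272 to 20611978 (height 51). In both of these pairs the summits were 1024 bp apart. The gap was 330 bp on chromosome 4 between 34497192 to 34498129 and 34498460 to 34499440, whose heights of 56 and 54 were nearly equal. It was 452 bp on chromosome 17 between 15634803 to 15635783 (height 69) and 15636236 to 15637381 (height 83). The fifth shortest gap, 985 bp on chromosome 11, lay between 97560710 to 97562474 and 97563460 to 97565226, which had almost the same width, 1765 and 1767 bp, and heights of 63 and 54. In these 5 pairs the taller region was 1.04 to 1.61 times as high as its partner.

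At the limits of the rule, gaps and heights ran on without a break. The widest gap kept was 9986 bp, on chromosome 19 between regions of heights 35 and 31 (44209567 to 44210671 and 44220658 to 44221298). The next were 9959 bp on chromosome 7 (heights 36 and 43) and 9919 bp on chromosome 17 (38 and 74). Just outside lay gaps of 10003 bp on chromosome 2 (22 and 71), 10011 bp on X (43 and 83) and 10012 bp on chromosome 8 (40 and 47). At the height ceiling, the tallest members reached 92 on chromosomes 8 and 19, beside partners of 44 and 26, and 91 on chromosomes 11 and 12, beside partners of 40 and 82. The first close pairs left out had a member of exactly 93, on chromosomes 6, 12 and 15, with partners of 35, 58 and 31.

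Within 1.2 times, the heights of close neighbours matched slightly more often than those of comparison pairs, with most pairs unmatched in both. Members had a median height of 42 (quartiles 31 and 56.8), counting a region once for each pair, and comparison regions one of 43 (31 and 59). The taller region of a close pair was a median of 1.36 times as high as the other (95% interval 1.33 to 1.42), against 1.49 times (1.45 to 1.53) at 20 to 50 kb. Heights lay within 1.2 times of each other in 202 of 633 close pairs, 31.9% (28.3 to 35.7), and in 420 of 1529 comparison pairs, 27.5% (25.2 to 29.8). Over all 7413 consecutive pairs under the ceiling this share was 26.0%. The difference between the first 2 shares was 4.44 percentage points (Newcombe 95% interval 0.248 to 8.76). The close share was the higher on 13 of 20 chromosomes and the lower on 7. It was 45.9% against 23.3% on chromosome 11 and 42.4% against 24.7% on chromosome 7. Without chromosome 11 the difference was 2.55 points and without chromosome 7 it was 3.04, and both intervals then held 0. Spearman's rank correlation between the heights of the left and right region was 0.20 over the 633 close pairs and 0.07 over the comparison pairs, a difference of 0.12 (0.03 to 0.21). Without chromosome 11 it was 0.093 (-0.003 to 0.188). With both heights from 32 to 65 in both sets, the difference in matched shares was 2.63 points (-5.19 to 10.4). The difference in rank correlation was then 0.076 (-0.082 to 0.231). The difference in matched shares also depended on the tolerance. It was 1.37 points (-1.97 to 4.94) for heights within 1.1 times and 8.72 (4.12 to 13.2) for heights within 1.5 times. All these points share 1 library.

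**Figure D2:**
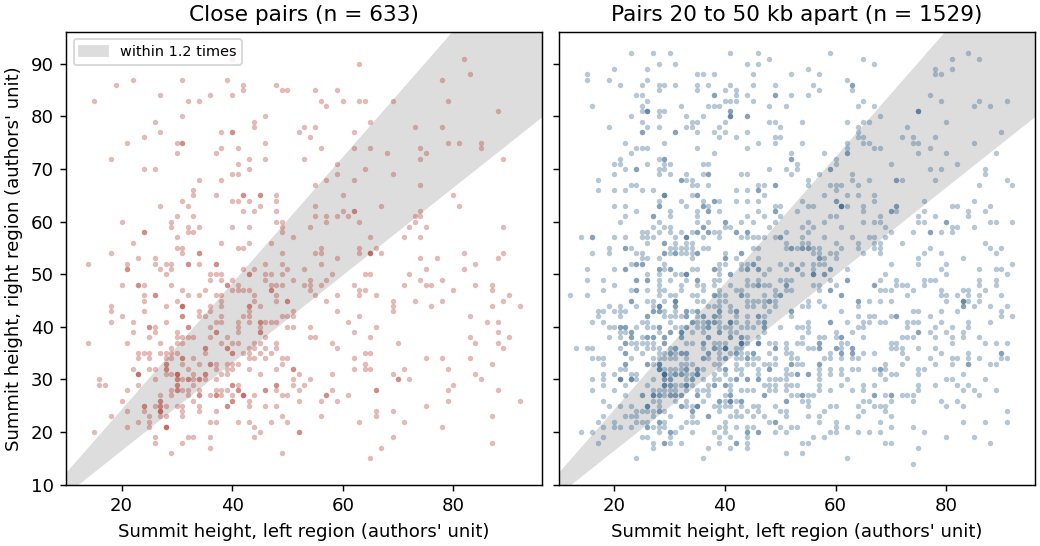
Summit height of the right region (vertical axis, authors' unit) against that of the left region (horizontal axis, same unit), 1 point per pair, for the 633 close pairs and the 1529 comparison pairs; the grey band marks heights within 1.2 times. Both clouds are broad, with 31.9% of close pairs and 27.5% of comparison pairs in the band.

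Likeness of height was greatest at the shorter gaps. The rank correlation was 0.41 over 104 pairs with a gap of 2 to 4 kb (95% interval on Fisher's scale 0.22 to 0.56) and 0.23 over 172 pairs at 4 to 6 kb (0.08 to 0.37). At 6 to 8 kb it was 0.12 over 180 pairs (-0.02 to 0.27), and at 8 to 10 kb 0.04 over 146 pairs (-0.12 to 0.20). Below 2 kb there were only 31 pairs, with a correlation of 0.44 (0.09 to 0.70). The share matched within 1.2 times went from 41.3% at 2 to 4 kb (31.8 to 51.4) and 38.4% at 4 to 6 kb (31.1 to 46.1) to 31.1% at 6 to 8 kb (24.4 to 38.4) and 21.2% at 8 to 10 kb (14.9 to 28.8). It was 19.4% below 2 kb (7.45 to 37.5), so there the correlation and the matched share pointed different ways. From 10 to 20 kb, where 27.4% matched, the correlation was 0.01. It did not fall steadily with distance beyond that. At 20 to 50 kb it was 0.07 (0.02 to 0.12), and over 50 to 200 kb it was 0.10 (0.07 to 0.14). Over 200 kb it was 0.01 (-0.03 to 0.05). Median heights in the 5 gap classes under 10 kb were 41 to 44.5, so the classes had nearly the same level of height. The differences between gap classes were not tested.

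**Figure D3:**
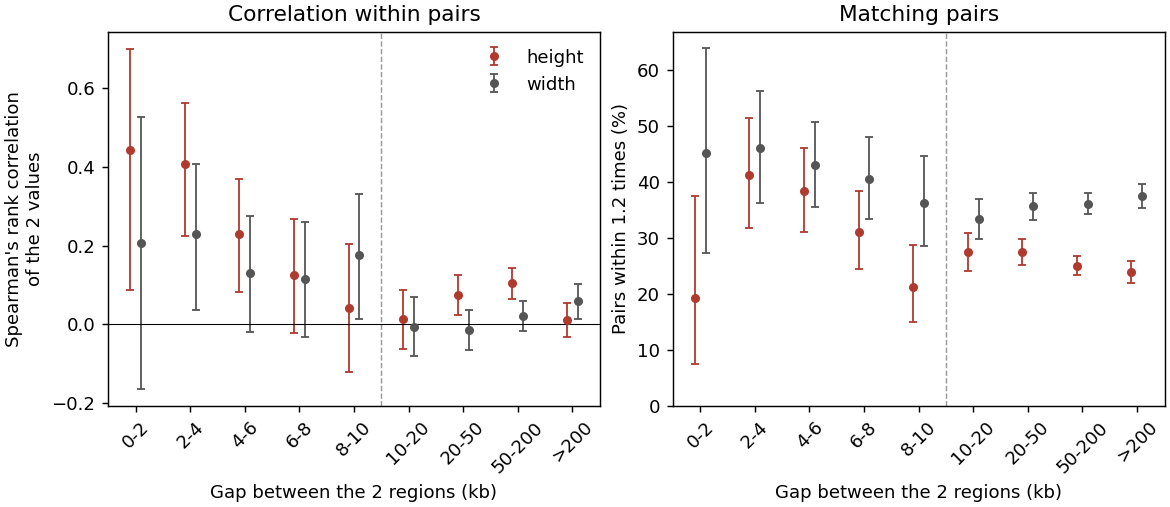
Spearman's rank correlation between the values of the 2 regions (left) and share of pairs within 1.2 times in percent (right) by gap in kb, for height (red) and width (grey); bars are 95% intervals over pairs and the dashed line marks 10 kb. The correlation of the heights is 0.41 at 2 to 4 kb and 0.04 at 8 to 10 kb, while the matched share below 2 kb rests on 31 pairs.

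Pairs of very unlike regions were found at both distances. Among all regions under the ceiling the quartiles of height were 31 and 57. A region at or below 31 stood beside one above 57 in 54 close pairs, 8.53% (6.47 to 11.0), and in 171 comparison pairs, 11.2% (9.65 to 12.9). Both regions were at or below 31 in 9.32% of close pairs (7.17 to 11.9) and 7.39% of comparison pairs (6.13 to 8.82). Both were above 57 in 7.74% (5.78 to 10.1) and 8.89% (7.52 to 10.4). These intervals overlap in each case. The shares also depend on how many low and high regions each set held, counting a region once for each pair. Regions at or below 31 made up 26.3% in close pairs and 25.1% in comparison pairs. Those above 57 made up 24.0% and 27.1%. The left region was the taller in 326 close pairs and the right in 288. Heights were equal in 19 of the 633 close pairs (1.82 to 4.65%) and in 2.09% of comparison pairs (1.44 to 2.94).

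The tallest equal pair was on chromosome 2, where regions at 25211500 to 25212479 and 25220504 to 25221475 both reached 78 and were 980 and 972 bp wide. Equal heights of 74 were found on chromosome 5 (137748395 to 137749583 and 137754892 to 137756050) and of 69 on chromosome 6 (134869567 to 134871230 and 134877570 to 134879672). Heights of 62 were shared on chromosome 8 (72654927 to 72655885 and 72662338 to 72664349), where the widths of 959 and 2012 bp differed, and on chromosome 11 (68825497 to 68826334 and 68829065 to 68830085). At the other extreme, on chromosome 2 a region of height 15 at 5863636 to 5864278 lay 7193 bp from one of height 83 at 5871472 to 5872993, a ratio of 5.53. Ratios of 4.83 on chromosome 17 (47638515 to 47639731 with 87, and 47647872 to 47648904 with 18) and 4.53 on chromosome 11 (69727008 to 69727919 with 19, and 69734480 to 69735900 with 86) followed. A ratio of 4.33 was reached on chromosome 8 (125100095 to 125101413 with 65, and 125108961 to 125109969 with 15) and one of 4.00 on chromosome 1 (194561969 to 194563210 with 18, and 194571228 to 194573265 with 72). Equal and very unequal neighbours were thus both found at gaps of several kb.

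Widths also matched more often in close pairs. The rule set no limit on width, but width is not separate from the values it used. The gap is measured between the same region edges, and taller regions were more often the wider. They lay within 1.2 times in 262 of 633 close pairs, 41.4% (37.5 to 45.3), and in 545 comparison pairs, 35.6% (33.2 to 38.1), where all 7413 pairs under the ceiling gave 36.6%. The difference was 5.75 points (1.26 to 10.3), with the close share higher on 16 of 20 chromosomes. The rank correlation between the widths was 0.16 in close pairs (0.09 to 0.24) and -0.01 in comparison pairs (-0.06 to 0.04). By gap, 46.2% matched at 2 to 4 kb (36.3 to 56.2) and 36.3% at 8 to 10 kb (28.5 to 44.7). The widths themselves were alike, with a median of 1114 bp in close pairs (1098 to 1134) and 1128 bp in comparison pairs (1115 to 1144), a difference of -14 bp (-36.6 to 10.0). In close pairs that differed in both values, the taller region was also the wider in 62.1% (58.1 to 65.9), against 61.6% (59.1 to 64.1) in comparison pairs. At gaps of 2 to 4 kb this share was 48.5% of 97 pairs (38.2 to 58.8), the lowest of the gap classes under 10 kb. It was 51.6% of 31 pairs below 2 kb (33.1 to 69.8). At 4 to 6 kb it was 65.1%, at 6 to 8 kb 64.8% and at 8 to 10 kb 66.7%.

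The summit within each region showed at most a small lean towards the partner. It lay on the partner's side of the region's midpoint in 665 of 1266 cases, 52.5% (49.7 to 55.3), against 49.3% (47.5 to 51.1) in comparison pairs. That difference of 3.25 points has an interval of -0.0278 to 6.51, which holds 0, and the close share was higher on 16 of 20 chromosomes. Both summits faced each other in 176 close pairs, 27.8% (24.3 to 31.5), and both pointed away in 144, 22.7% (19.5 to 26.2). In comparison pairs the shares were 24.6% (22.5 to 26.8) and 26.0% (23.8 to 28.2). The lean was not seen at gaps below 2 kb, where 26 of 62 summits faced the partner, 41.9% (29.5 to 55.2), nor at 2 to 4 kb, where 103 of 208 did, 49.5% (42.5 to 56.5). In the deposited file, 9005 of 9095 summits fall on multiples of 16 bp, which limits their resolution.

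Most members formed pairs and few formed longer runs. The 1195 regions fell into 562 groups linked by gaps of 10 kb or less, of which 501 were pairs, 52 had 3 regions, 8 had 4 and 1 had 5. The 61 runs of 3 or more held 193 regions, 16.2% of the members (14.1 to 18.4), on 17 chromosomes, with none on 13, 14 and 18. Chromosomes 11 and 17 had 8 each and chromosome 7 had 7. Their median span was 16693 bp (15905 to 17661). Of the 562 groups, 20 or 3.56% (2.19 to 5.44) had a region of height 93 or more within 10 kb of either end.

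The longest run, of 5 regions, spanned 32551 bp on chromosome 17 from 34045566 to 34078116. Its heights alternated along the chromosome, at 71, 32, 83, 38 and 74, with gaps of 4906, 3634, 7658 and 9919 bp. On chromosome 16, from 20610261 to 20630538, 4 regions fell steadily from left to right, at 82, 51, 32 and 19. Chromosome 4 held 2 of the runs of 4. The one from 141094592 to 141116295 had heights of 43, 72, 30 and 35, and the one from 124370335 to 124392470 had heights of 41, 22, 32 and 28. On chromosome 9, from 107435772 to 107458056, the heights were 62, 34, 43 and 70, with the taller regions at the ends. No single order of heights was shared by these 5 runs.

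**Figure D4:**
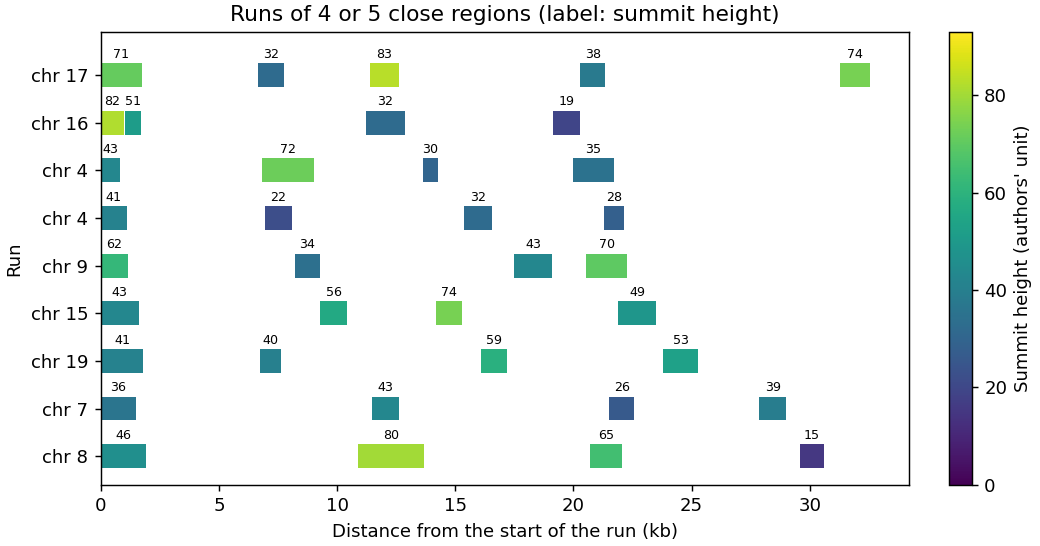
The 9 runs of 4 or 5 close regions, 1 per row, drawn to scale from the start of each run in kb (horizontal axis); each bar is a region, coloured and labelled by its summit height in the authors' unit. Heights range from 15 to 83, and the run of 5 on chromosome 17 alternates between heights over 70 and under 40.

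Neighbours inside runs matched in height less often than neighbours in lone pairs. Of the 132 consecutive pairs within runs of 3 or more, 28 were within 1.2 times, 21.2% (14.6 to 29.2), against 174 of 501 pairs outside runs, 34.7% (30.6 to 39.1). The difference was -13.5 points (-21.0 to -4.79), a contrast chosen after its values were seen. Median gaps of 6350 and 6078 bp and median heights of 41 and 42 differed little between these sets. The rank correlation did not show the same order, at 0.24 in runs (0.07 to 0.39) and 0.19 outside (0.10 to 0.27). In the 52 runs of 3, the middle region was the tallest in 14, 26.9% (15.6 to 41.0), and the lowest in 17, 32.7% (20.3 to 47.1). The longer of the 2 gaps in such a run was a median of 1.56 times the shorter.

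Close pairs occurred on every chromosome of the list, at different rates. Chromosome 19 had the highest share, with 32 of 309 consecutive pairs or 10.4% (7.19 to 14.3), followed by chromosome 17 with 9.64% (7.19 to 12.6) and chromosome 7 with 9.02% (6.94 to 11.5). X had the lowest, 8 of 209 or 3.83% (1.67 to 7.40), next to chromosome 12 with 4.17% (2.17 to 7.17). The intervals of chromosome 19 and X overlap narrowly. Across the 20 chromosomes the share was higher where there were more regions per Mb, with a Spearman's rank correlation of 0.77 and a Pearson's r of 0.77; both values count the same regions, and chromosomes of 1 library are not independent.

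**Figure D5:**
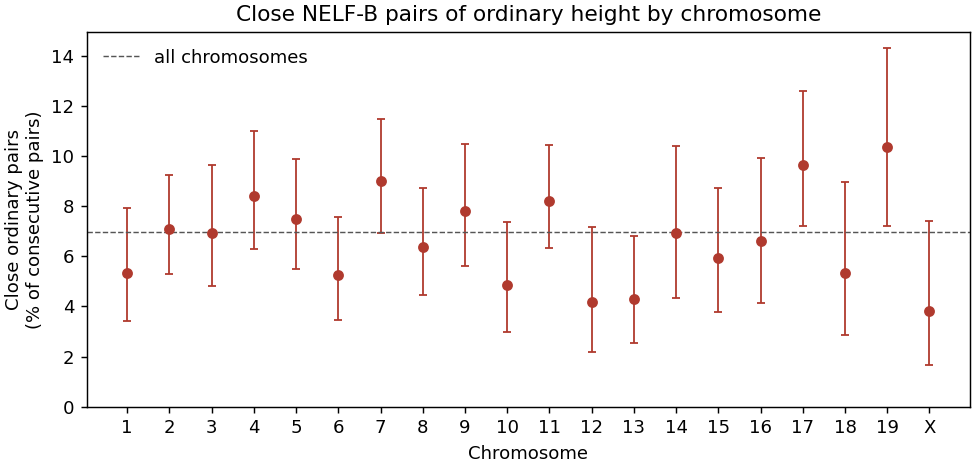
Close pairs of ordinary height as a percent of all consecutive pairs (vertical axis) on each chromosome (horizontal axis); points are shares, bars exact 95% intervals and the dashed line the share over all chromosomes, 6.98%. Chromosomes 19, 17 and 7 are highest and X lowest, with wide intervals.

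At the scale of 1 Mb, the 633 pairs lay in 383 windows, by the start of the left region, of which 245 held a single pair. The most, 8 pairs, were on chromosome 7 from 52000001 to 53000000. Windows on chromosome 17 from 34000001 to 35000000 and on chromosome 19 from 5000001 to 6000000 held 7 each. Around a close pair there were a median of 19 other regions within 1 Mb (18 to 20), against 16 around a comparison pair (16 to 17). For the 501 close pairs outside runs the median was 17 (16 to 18). No other region lay within 100 kb of 12.3% of close pairs (9.86 to 15.1) and 15.6% of comparison pairs (13.8 to 17.5); outside runs the share was 15.6% (12.5 to 19.0). The nearest region outside the pair was a median of 22815 bp away (19927 to 26149), or 30307 bp (27844 to 34697) for pairs outside runs, against 27862 bp (26432 to 30177) around comparison pairs. By definition, the next region on either side of a close pair outside runs was over 10 kb away or 93 or more in height. Comparison pairs had no such limit, so the values for pairs outside runs are shifted by that choice. Over all 633 close pairs, the quartiles of other regions within 1 Mb were 11 and 31, so surroundings ranged from sparse to dense.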

How the data were processed

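NELF-B was mapped by ChIP-seq in 1 library of mouse embryonic fibroblasts. Per the file headers, the deposited file has 3 tracks, each with 9095 entries: summits with a score, intervals, and active regions. The score is the authors' own summit height, with no unit stated. MACS is named as the peak caller in the submitters' processing notes, without a version; aligner, threshold, build and use of the input: not given in the sources used here. Heights were joined to intervals by file order, which placed each summit inside its interval. Starts were raised by 1. Intervals at 95% are exact Clopper-Pearson (shares), Newcombe (differences of shares), order-statistic (medians) or on Fisher's scale (rank correlations). For differences in rank correlation and in median width, the separate intervals of close and comparison pairs were combined. Intervals take pairs as independent, or regions counted once for each pair where summits and median widths are given. In all, 7 differences between close and comparison pairs were computed. No test was made, since pairs of 1 library are not replicates. The counting of close pairs was checked on layouts with planted pairs, which held no run of 3 or more. The planned look at genes was not made, for want of an annotation in the list's coordinates. Named pairs and runs follow rules: shortest gaps, largest height ratios, tallest equal heights, pairs at either limit, and the 5 runs with the most regions, the shorter span first among equals. The members and rules were chosen with earlier results of these data known. The tools were Python 3.11.15 with matplotlib 3.10.9, pandas 2.3.3, SciPy 1.17.1 and NumPy 2.4.6.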

Additional observations from a re-analysis of the deposited data

How the results depend on the processing

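Of 252 alternatives over 8 results, 240 gave a value within the interval reported for it (counts: within 1.5 times), 11 gave one outside and 1 turned a direction. Of these, 160 left out 1 chromosome in turn, and all 160 were among the 240. The number of close pairs was 208 for a gap limit of 5 kb and 1322 for 20 kb, and the number of runs was 7 and 223, by construction. Runs numbered 34 for a height ceiling of 65 and 95 with no ceiling. The median gap was 3479 bp at 5 kb and 10331 bp at 20 kb, and 6848 bp when measured between summits. The difference in rank correlation of the heights was 0.238 at 5 kb and 0.0301 at 20 kb. The difference in median width turned to 2 bp for a ceiling of 65. For the correlation difference and that turn the cause was not tested. The difference in matched heights had an interval that held 0 in 8 of 15 alternatives and for 7 of the 20 chromosomes left out, with values from 2.55 to 5.40 points over the latter; that in matched widths held 0 in 4 of 15 and for 0 of 20, and that in rank correlation of the heights in 2 of 13 and for 1 of 20, chromosome 11. Keeping only pairs outside runs, or gaps of 2 to 5 kb, was chosen after seeing the data, and neither gave a value outside the interval. No replicate could be left out, and no paired analysis was possible because each group has 1 library. Unknown depth limits every height.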

Other observations

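Some close pairs put an ordinary region beside a tall one. Of the 842 consecutive pairs within 10 kb, 209 held a region of height 93 or more, 176 with 1 such region and 33 with 2. Pairs with 2 tall regions were close in 21.0% of 157 cases (exact 95% interval 14.9 to 28.2), those with 1 in 11.7% of 1505 (10.1 to 13.4) and those with none in 8.54% of 7413 (7.91 to 9.20). The ordinary partner of a tall region had a median height of 45 within 10 kb (41 to 49) and also 45 at 20 to 50 kb (43 to 47). Close pairs of 2 tall regions had a median gap of 5042 bp, and 5 of the 33 had a gap under 2 kb, 15.2%, against 31 of the 633 ordinary pairs, 4.90%. All of these heights entered the rule that chose the members, so these values are a description.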
